A study of Mus musculus with 10 samples.

Results

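The 9 genes described here are Ccr6, Ccr7, Ccr9, Ccr10, Cxcr3, Cxcr4, Cxcr5, Gpr183 (EBI2) and S1pr4, all of them G protein-coupled receptors that place B cells in lymphoid tissue. The genes were chosen with earlier results of these data known, and all their probe sets were taken by symbol from the platform annotation. These genes make up 9 of 18193 genes with a probe set of their own on the array. They are covered by 14 of 45037 probe sets, a probe set being a group of short oligonucleotides that together read 1 transcript. The groups were 5 Irf4-/- samples, in which both alleles of the transcription factor gene Irf4 are disrupted, and 5 Irf4+/+ samples. All mice were C57BL/6 littermates of 12 weeks, and their splenic B cells were enriched by magnetic removal of other cells. Both genotypes received IL-4 at 20 ng/ml and an antibody against CD40 over 3 days of culture. The labels give the antibody at 1 mg/ml, an unusually high concentration whose unit could not be checked. No unstimulated sample is in the comparison, and whether every cell responded was not tested. RNA was read on 1-colour Affymetrix 3′ arrays, 1 array a sample, as linear signal. The sources used here do not state if each sample was its own mouse or its own culture. The p-values therefore cover the scatter among these arrays, part of which may be technical.

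Chemokine receptors couple mainly to inhibitory G proteins and steer cells along gradients of chemokines laid down by stromal cells. Cxcr5 follows Cxcl13 into the follicle, Ccr7 follows Ccl19 and Ccl21 towards the T zone, and Gpr183 follows an oxysterol to the follicle edge and the bridging channels. Cxcr4 reads Cxcl12 in bone marrow, red pulp and the dark zone of germinal centres, and Ccr6 reads Ccl20 near epithelia. Ccr9 and Ccr10 guide antibody-secreting cells to gut and other mucosae, Cxcr3 follows interferon-induced chemokines, and S1pr4 is a receptor for sphingosine 1-phosphate, the lipid whose gradient draws lymphocytes into blood and lymph.

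The trimmed mean signal (2% trimmed from either tail) was 250 on all 10 arrays, a value that MAS5 scaling sets. The median signal, which that scaling does not fix, was 39.9 to 45 units in Irf4-/- samples and 37.2 to 42.7 in Irf4+/+ samples. Over the tested genes Pearson's r was 0.938 to 0.945 for arrays of different genotype and 0.977 to 0.985 for arrays of the same genotype. Irf4 itself gave 2638.2 to 2988.7 signal units in Irf4-/- samples and 3426.4 to 3978.4 in Irf4+/+ samples (log2 fold change -0.43, adjusted p = 5.01e-06 in limma). This signal does not check the genotype, because the position of the probe set with respect to the disruption is unknown here. Of 6 listed B cell markers the 5 tested, Ms4a1 (CD20), Cd79a, Cd79b, Cd22 and Pax5, rose in Irf4-/- samples, with a median log2 fold change of 1.12, and their summed signal was 37081.5 to 41678.5 in Irf4-/- samples against 19656.3 to 22054.8 in Irf4+/+ samples. Of 8 listed natural killer cell markers the 7 tested rose too (median 2.30, summed signal 11267.3 to 15717.8 in Irf4-/- samples against 1243 to 1535 in Irf4+/+ samples). Most of that sum came from Gzma and Gzmb, which averaged 8256 and 4868 units in Irf4-/- samples. The surface receptor genes Ncr1, Klrk1 and Klrd1 averaged 45.7, 58.4 and 178.1 units there. Of 6 macrophage markers tested 3 rose (summed signal 1240 to 1465 in Irf4-/- samples against 449.5 to 518.7 in Irf4+/+ samples). Of 4 T cell markers tested 2 rose (summed signal 281.4 to 395.2 in Irf4-/- samples against 129.1 to 238.5 in Irf4+/+ samples), and the defining T cell genes Cd3e, Cd3d, Cd3g and Cd4 averaged 12.0, 5.68, 11.2 and 7.24 units in Irf4-/- samples and 9.86, 5.76, 8.06 and 6.04 in Irf4+/+ samples, under the brightness needed for testing. Of 4 granulocyte markers tested 2 rose, S100a8 and S100a9 (summed signal of the list 410.2 to 720.4 in Irf4-/- samples against 69.5 to 133.8 in Irf4+/+ samples), and of 4 dendritic cell markers 2 rose and 1 fell. At an adjusted p under 0.05, 23.4% of all 12251 genes tested were higher and 23.9% lower in Irf4-/- samples. S100a8, S100a9 and the natural killer markers Klrd1 and Ncr1 averaged 18.3, 6.56, 22.8 and 16.2 units in Irf4+/+ samples, under the required 25.1 units. They were bright enough to test only through their Irf4-/- samples, so their calls are not counted as support. The 18S ribosomal RNA controls were brighter in Irf4-/- samples (126.2 to 289 units for the 3′ control, against 58.1 to 104.9 in Irf4+/+ samples). The part of these differences in the receptor results was not tested.

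Of the 9 receptors 8 were bright enough to test, and 7 of these differed between the genotypes at an adjusted p under 0.05. Ccr6, Gpr183, Cxcr5 and S1pr4 rose in Irf4-/- samples, Ccr7, Cxcr4 and Ccr10 fell, Cxcr3 did not pass the test and Ccr9 was at background. Among all 12251 genes tested 47.2% were called by the same rule, 23.4% as higher and 23.9% as lower. The receptors were chosen with earlier results known, and nothing particular to them is drawn from these counts. A change of at least 2-fold was counted for 2 receptors, Ccr6 and Ccr10, where 8.04% of all genes were called with such a change. Ccr10 was bright enough to test only through its Irf4+/+ samples, so its call is not counted as support, and with 32 in place of 7.9 as the constant added before taking logarithms (log2 fold change -0.91) it leaves the 2-fold count. Without Ccr10, 6 of 7 receptors were called. In 6 of the 8 the 2 genotypes did not overlap, as was the case for 35.7% of all genes. At the level of single probe sets 9 of 14 were tested and 8 were called, 5 higher and 3 lower, against 42.5% of 22533 tested probe sets. The median log2 fold change was 0.28 over the 8 tested receptors and 0.00 over all genes. In bulk RNA of this kind, fewer cells that express a receptor and less of its transcript in each cell cannot be told apart.

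**Figure D1:**
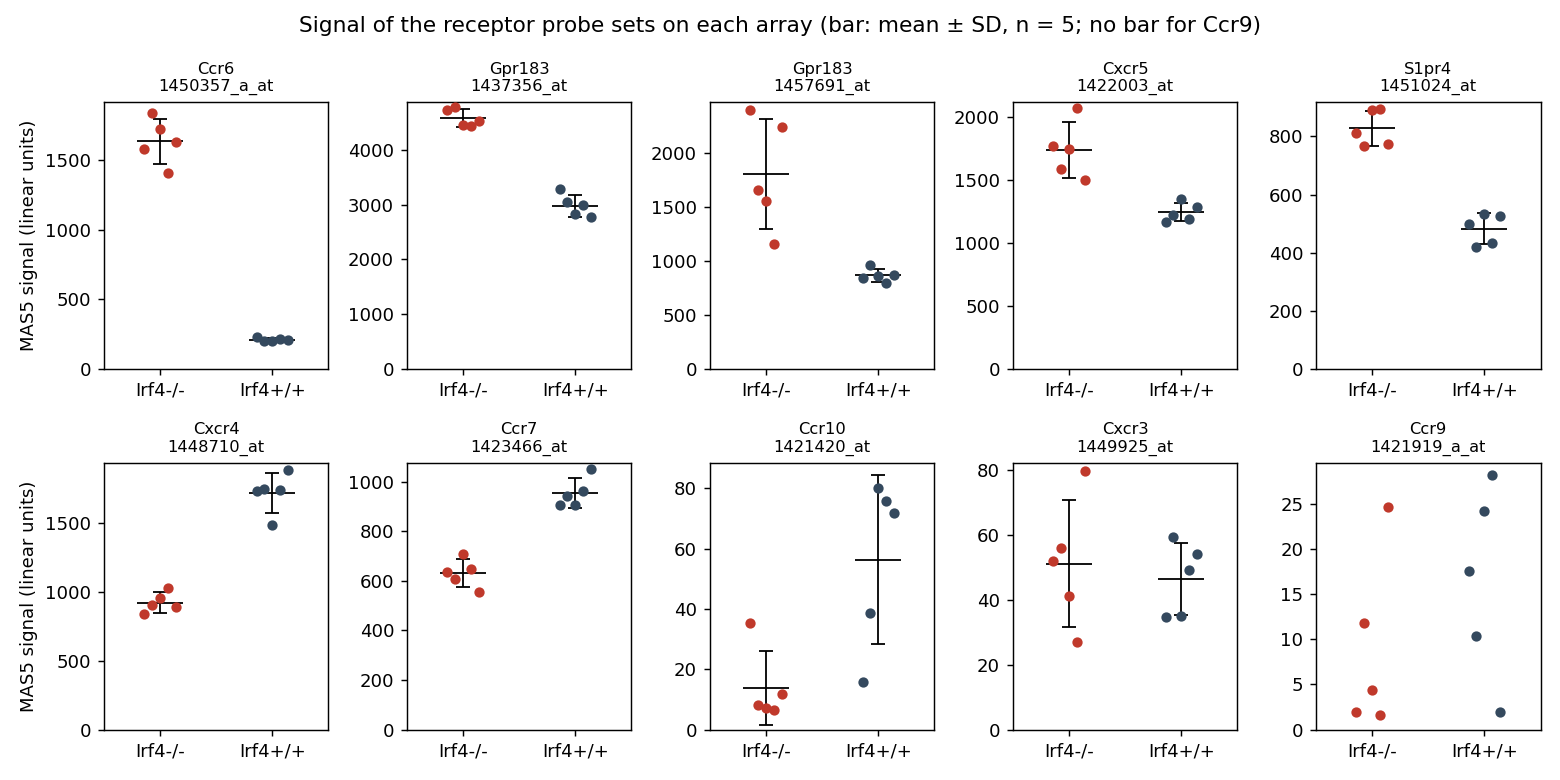
Linear MAS5 signal (vertical axis, from 0, scaled to each panel) of 10 receptor probe sets on every array, with Irf4-/- samples in red at the left and Irf4+/+ samples in dark blue at the right of each panel. Bars are the mean and SD of 5 samples, with none drawn for Ccr9, shown by its brightest probe set. The groups are apart for Ccr6, both Gpr183 probe sets, Cxcr5, S1pr4, Cxcr4 and Ccr7, and overlap for Ccr10, Cxcr3 and Ccr9.

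Ccr6, which binds Ccl20 and is carried by mature B cells, changed most. Its probe set read 1578.1, 1834.2, 1720.6, 1406.5 and 1625.9 signal units in the Irf4-/- samples, and 226.3, 197.8, 202.9, 211 and 208.8 units in the Irf4+/+ samples. The lowest Irf4-/- array lay far above the highest Irf4+/+ array. The means were 1633 ± 160.1 (Irf4-/-) and 209.4 ± 10.8 (Irf4+/+; SD, n = 5), a 7.53-fold difference (log2 fold change 2.91, 95% interval 2.76 to 3.07, adjusted p = 3.41e-14 in limma). Only 46 of the 12251 genes tested had a larger positive log2 fold change. The genes whose profile over the 10 arrays lay closest to that of Ccr6, by Euclidean distance of log2 values centred on each gene's mean, were Ighv14-2 (distance 0.34, log2 fold change 2.91) and Srpk3 (distance 0.43, log2 fold change 2.85).

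RefSeq gives 2 transcription starts for Ccr6 and 1 for Cxcr4. The 250 bases before each are shown, 5′ to 3′ in build GRCm38.p6, because these genes had the largest rise and the largest fall among the receptors with bright signal. They lie at chr17:8235793-8236042 and chr17:8242276-8242525, both on the plus strand, for Ccr6, and at chr1:128592300-128592549 on the minus strand for Cxcr4. Capitals mark letters that match a searched motif.
Ccr6, first start: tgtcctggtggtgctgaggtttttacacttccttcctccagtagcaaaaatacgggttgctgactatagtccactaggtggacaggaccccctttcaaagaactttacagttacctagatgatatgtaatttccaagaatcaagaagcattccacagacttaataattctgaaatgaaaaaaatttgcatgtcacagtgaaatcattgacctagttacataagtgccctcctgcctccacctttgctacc
Ccr6, second start: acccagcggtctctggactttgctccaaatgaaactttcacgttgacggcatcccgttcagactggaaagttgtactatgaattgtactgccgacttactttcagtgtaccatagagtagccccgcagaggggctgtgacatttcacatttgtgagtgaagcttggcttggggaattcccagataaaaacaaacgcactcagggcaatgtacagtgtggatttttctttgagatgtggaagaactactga
Cxcr4: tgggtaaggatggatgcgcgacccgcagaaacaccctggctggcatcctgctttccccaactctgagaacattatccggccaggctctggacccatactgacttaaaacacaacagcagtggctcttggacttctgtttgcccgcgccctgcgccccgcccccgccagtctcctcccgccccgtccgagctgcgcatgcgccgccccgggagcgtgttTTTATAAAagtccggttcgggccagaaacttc

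The motifs searched on both strands were the ETS-IRF composite element (GGAA, any 2 bases, then GAAA) and the interferon-stimulated response element (GAAA, any 2 bases, then GAAA), to which Irf4 is known to bind with partner factors, the AP-1 site TGANTCA and the TATA box TATAAA. Promoters were held for 6 of the 9 receptors (7 starts), and 6 of these 7 windows had no match to any of the motifs. Only Cxcr4 had one, a TATA box matched on both strands in overlapping letters, beginning 32 and 30 bases before the start. Over 32851 RefSeq promoter windows of the same length the share with a match was 2.30%, 2.98%, 6.75% and 12.4% for the motifs in the order given. An absent match says only that these letters are not in this window.

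Gpr183 and Cxcr5, the receptors that set a B cell's place within and around the follicle, both rose. The brighter Gpr183 probe set read 4727.6, 4775.5, 4449.2, 4440.8 and 4521 units in Irf4-/- samples, and 3283.9, 3037.8, 2819.2, 2988.9 and 2780.8 units in Irf4+/+ samples. Every Irf4-/- array exceeded every Irf4+/+ array by a wide margin. The difference was 1.54-fold (log2 fold change 0.62, SE 0.0537, adjusted p = 7.38e-08 in limma). The second Gpr183 probe set read 2391.3, 1653.7, 1558.1, 1158.8 and 2240.3 units in Irf4-/- samples against 843.8, 960, 861.7, 795.1 and 865.9 units in Irf4+/+ samples. It also separated the genotypes, but its Irf4-/- arrays were spread widely, with a coefficient of variation of 28.2%, against 6.93% in Irf4+/+ samples. Its difference was 2.01-fold (log2 fold change 1.00, SE 0.146, adjusted p = 2.87e-05 in the fit over probe sets), and its 95% interval of 0.70 to 1.31 overlapped that of the brighter probe set in the same fit (0.50 to 0.74). The direction was shared, and whether the sizes differ was not tested.

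Cxcr5 gave the smallest called change of the group. It read 1769.2, 1583, 1746.4, 2071.3 and 1500.4 units in Irf4-/- samples, and 1167.5, 1218.4, 1343.9, 1191.8 and 1283.5 units in Irf4+/+ samples. The lowest Irf4-/- array was close above the highest Irf4+/+ array. The means of 1734 ± 219.4 (Irf4-/-) and 1241 ± 72.0 (Irf4+/+; SD, n = 5) differed 1.39-fold (log2 fold change 0.47, SE 0.0772, adjusted p = 8.30e-05 in limma).

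S1pr4, which senses sphingosine 1-phosphate and is largely confined to leukocytes, read 812.4, 768.4, 889.3, 895 and 775.3 units in Irf4-/- samples, and 498.4, 418.5, 532.9, 432.1 and 526.8 units in Irf4+/+ samples. All Irf4-/- arrays were above all Irf4+/+ arrays. It rose 1.71-fold (log2 fold change 0.78, SE 0.0809, adjusted p = 6.38e-07 in limma). S1pr1, the receptor by which lymphocytes leave lymphoid organs, averaged 146.9 ± 13.9 units (Irf4-/-) and 58.8 ± 13.8 (Irf4+/+; SD, n = 5) and rose 2.36-fold. S1pr3, known from marginal zone B cells, averaged 3058 ± 251 in Irf4-/- and 940.2 ± 97.8 in Irf4+/+ samples and rose 3.24-fold.

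Ccr7 and Cxcr4 moved the other way. Cxcr4 read 837, 902.3, 954.9, 1031.4 and 888.4 units in Irf4-/- samples, and 1735.7, 1750.6, 1488, 1742.8 and 1887.1 units in Irf4+/+ samples. Its highest Irf4-/- array was still well under its lowest Irf4+/+ array. The Irf4-/- mean was 53.6% of the Irf4+/+ mean (log2 fold change -0.89, SE 0.0710, adjusted p = 2.73e-08 in limma). Ccr7 read 636, 606.9, 708.7, 647.7 and 556.3 units in Irf4-/- samples, and 905, 943.4, 904.1, 960.7 and 1051.9 units in Irf4+/+ samples. These groups did not overlap either, and the Irf4-/- mean was 66.2% of the Irf4+/+ mean (log2 fold change -0.59, SE 0.0708, adjusted p = 3.09e-06 in limma).

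**Figure D2:**
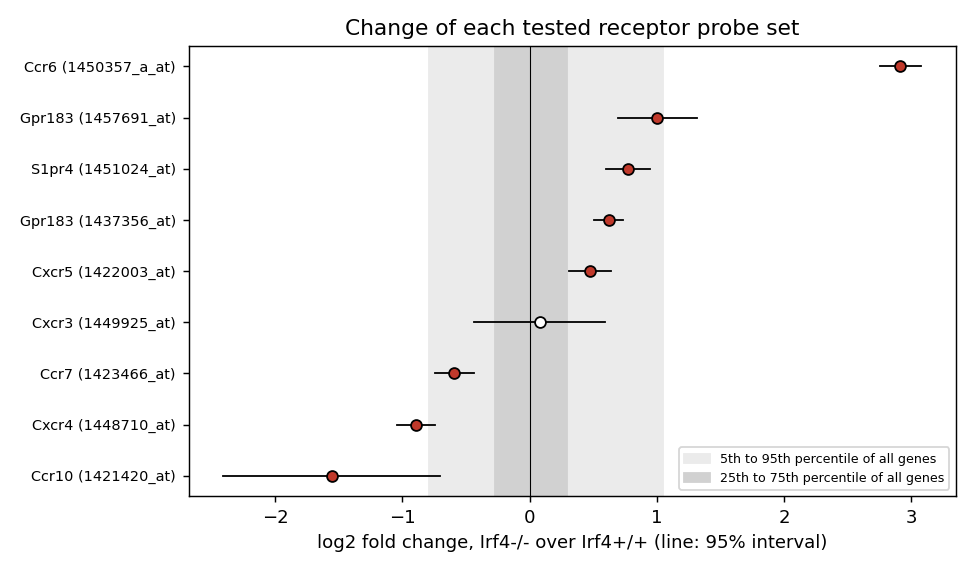
Log2 fold change of Irf4-/- over Irf4+/+ samples (horizontal axis) for the 9 receptor probe sets that were tested, with 95% intervals as lines. Filled points passed the test (adjusted p under 0.05). The grey bands hold the 5th to 95th (-0.79 to 1.05) and 25th to 75th (-0.27 to 0.30) percentile of all genes. Ccr6 lies far outside the wider band at 2.91, and the interval of Cxcr3 crosses 0.

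The receptors of antibody-secreting and effector cells were dim. Ccr10, the receptor for Ccl27 and Ccl28 on plasma cells of mucosal surfaces, read 35.3, 8.3, 7.1, 6.5 and 11.7 units in Irf4-/- samples, and 15.8, 38.6, 80.1, 75.8 and 71.8 units in Irf4+/+ samples. The groups overlapped through Irf4-/- replicate 1 and Irf4+/+ replicate 1. Ccr10 fell (log2 fold change -1.55, SE 0.407, adjusted p = 0.0046 in limma), and because its Irf4-/- mean of 13.8 units was under 26.1, the 40th percentile of all values, the size depended on the constant added before taking logarithms: the log2 fold change was -2.04 with 1 and -0.91 with 32 in place of 7.9. Plasma cell markers fell beside it: Jchain, the joining chain of polymeric IgM and IgA, had a log2 fold change of -5.14 (its Irf4-/- mean of 21.9 units was also under 26.1), the plasma cell proteoglycan gene Sdc1 -1.03 and Prdm1, the regulator of plasma cell fate, -0.85. Xbp1, which also fell, had a log2 fold change of only -0.20 with overlapping groups. Tnfrsf13b, which encodes the BAFF and APRIL receptor TACI, rose (0.29). So 4 of 5 tested plasma cell markers fell and 1 rose, where 23.9% of all genes were called as lower and 23.4% as higher. Jchain was bright enough to test only through its Irf4+/+ samples, so its call is not counted as support.

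Cxcr3, found on activated T and natural killer cells and on some B cells, read 52, 56.2, 41.2, 27 and 79.8 units in Irf4-/- samples, and 34.9, 59.4, 35.1, 49.4 and 54.1 units in Irf4+/+ samples. The groups overlapped almost fully. The log2 fold change was 0.08, with a 95% interval of -0.44 to 0.60 (adjusted p = 0.828 in limma). Tbx21 (T-bet), a transcription factor known to activate Cxcr3, rose, averaging 103.1 ± 13.7 units (Irf4-/-) and 9.70 ± 3.63 (Irf4+/+; SD, n = 5; log2 fold change 2.67, adjusted p = 4.83e-08 in limma). Its Irf4+/+ samples were near background, so the fold depends on the added constant (log2 fold change 3.35 with 1 and 1.69 with 32). Tbx21 was bright enough to test only through its Irf4-/- samples, so its call is not counted as support.

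All 5 Ccr9 probe sets were at background. Their values ran from 1.6 to 24.8 units in Irf4-/- samples and from 1.2 to 28.2 units in Irf4+/+ samples, and their mean brightness lay between the 17.3rd and the 23.7th percentile of all probe sets, where the 40th was required. No Ccr9 probe set separated the genotypes. With no filter their adjusted p ran from 0.372 to 0.980 in limma, and their log2 fold changes from -0.57 to 0.52, in both directions.

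Whether the receptors changed by different amounts was tested as the difference of 2 log2 values within each array. Ccr7 minus Cxcr5, the pair read by T zone and follicle chemokines, was -1.44 ± 0.140 (Irf4-/-) and -0.38 ± 0.112 (Irf4+/+; SD, n = 5). Because both receptors separated the genotypes in opposite directions, this difference had to separate them too, and the same holds for Cxcr4 minus Cxcr5, so their p-values add nothing to the results of the single receptors. Ccr7 changed by -1.06 log2 units relative to Cxcr5 (exact two-sided permutation p = 0.00794, the smallest that 5 against 5 samples can give; adjusted p = 0.0106 over 4 pairs). Cxcr4 minus Cxcr5 was -0.90 ± 0.134 in Irf4-/- and 0.47 ± 0.180 in Irf4+/+ samples, a difference of -1.37 (exact permutation p = 0.00794, adjusted p = 0.0106). Ccr6 minus Cxcr5 was -0.08 ± 0.300 in Irf4-/- and -2.52 ± 0.135 in Irf4+/+ samples, a difference of 2.44 (exact permutation p = 0.00794, adjusted p = 0.0106). On the log2 scale the gap between the Ccr6 groups (226.3 to 1406.5 units) was wider than the whole range of Cxcr5 (1167.5 to 2071.3). This pair therefore had to separate the genotypes as well, and its p-value adds nothing to the results of the single receptors. Gpr183 minus Cxcr5 was 1.41 ± 0.203 in Irf4-/- and 1.26 ± 0.172 in Irf4+/+ samples, with overlapping groups and a difference of 0.15 (exact permutation p = 0.254, adjusted p = 0.254). With the mean of both Gpr183 probe sets this last difference was 0.34 (exact permutation test, adjusted p = 0.103). The sign of a single pair value carries no meaning, since probe sets differ in brightness, and only the difference between genotypes does.

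**Figure D3:**
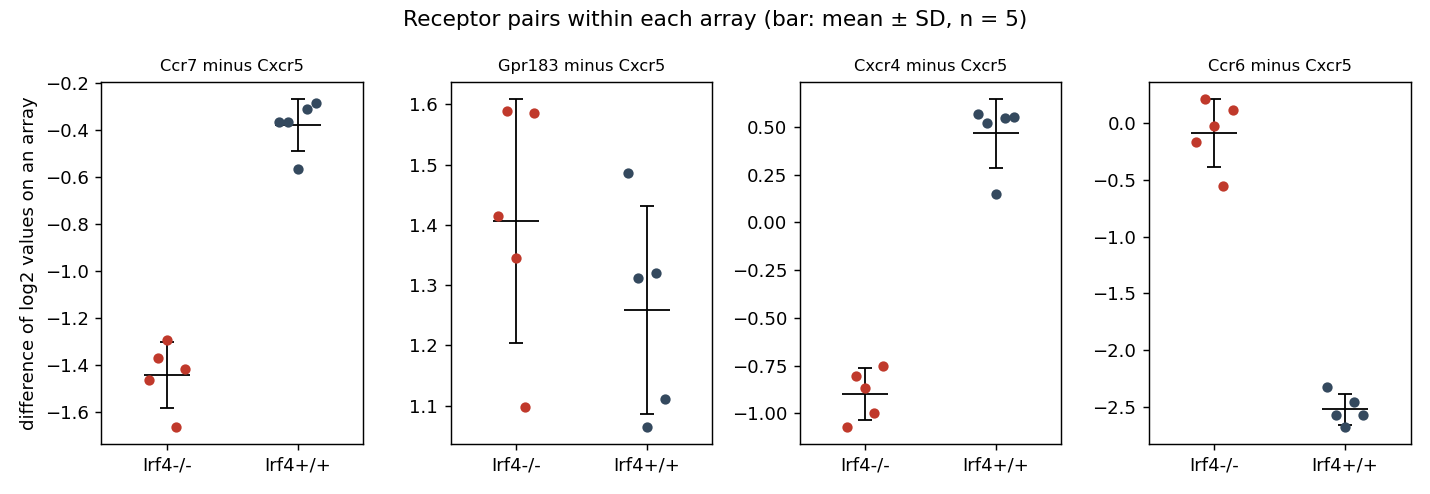
Difference of the log2 values of 2 receptors within each array (vertical axis, scaled to each panel), with Irf4-/- samples at the left and Irf4+/+ samples at the right, and the mean and SD of 5 samples as bars. The genotypes are apart for Ccr7, Cxcr4 and Ccr6 against Cxcr5 (differences of -1.06, -1.37 and 2.44) and overlap for Gpr183 against Cxcr5 (0.15).

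Ligands of these receptors, and the enzymes that make or break them, were mostly dim in the cultured B cells. Of 19 listed genes 10 were tested, 1 rose and 9 did not pass the test, where 47.2% of all genes were called, with a median log2 fold change of 0.21 against 0.00 over all genes. Sgpl1, the lyase that degrades sphingosine 1-phosphate, rose 3.29-fold and averaged 1353 ± 109.8 units (Irf4-/-) and 408.3 ± 59.7 (Irf4+/+; SD, n = 5; adjusted p = 1.38e-10 in limma). Hsd3b7, which inactivates the oxysterol read by Gpr183, had a log2 fold change of -0.36, the Ccr9 ligand gene Ccl25 0.28 and the sphingosine 1-phosphate exporter gene Spns2 0.34 (adjusted p = 0.117, 0.169 and 0.279 in limma).

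Among the other chemokine and sphingosine 1-phosphate receptors 11 of 20 were tested, 7 rose, 2 fell and 2 were not called (median log2 fold change 0.82), where 23.4% of all genes rose and 23.9% fell. Of the 7, Cxcr6 averaged 17.1 units in Irf4+/+ samples and was bright enough to test only through its Irf4-/- samples (43.4 units). Beside S1pr1 and S1pr3, the atypical receptor genes Ackr3 and Ackr2 rose, whose products take up chemokines without signalling through G proteins. Ackr3, which binds Cxcl12 as Cxcr4 does, averaged 228.4 ± 10.8 units (Irf4-/-) and 111.1 ± 7.88 (Irf4+/+; SD, n = 5), a 1.99-fold rise (adjusted p = 1.48e-07 in limma). Ackr2 averaged 181.6 ± 30.3 units in Irf4-/- and 53.6 ± 15.5 in Irf4+/+ samples, a 3.13-fold rise (log2 fold change 1.64, and 0.92 with the mean of its probe sets). The 2 that fell, named after their values were seen, were Ccr4 (log2 fold change -1.28), the receptor for Ccl17 and Ccl22, and Ccrl2 (-0.56), which binds chemerin.

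Downstream of the receptors 28 of 33 listed G proteins, effectors and regulators were tested, 13 rose, 7 fell and 8 were not called (median log2 fold change 0.25), against 23.4% higher and 23.9% lower among all genes. Rgs1, which speeds up the shut-off of inhibitory G proteins and dampens migration, rose 3.42-fold and averaged 1274 ± 80.2 units (Irf4-/-) and 368.4 ± 40.4 (Irf4+/+; SD, n = 5; adjusted p = 1.67e-11 in limma). Pik3cg, the phosphoinositide 3-kinase driven by G protein βγ subunits, rose 4.50-fold, the γ subunit gene Gng2 2.48-fold and Rac2, a GTPase of actin remodelling, 2.19-fold. Chosen after their values were seen, Gnai2, the main inhibitory α subunit of lymphocytes, rose 1.35-fold (4434 ± 246.5 units in Irf4-/- and 3296 ± 421.5 in Irf4+/+ samples) and Rgs10 fell 2.59-fold. Rac2 and Gnai2 are used by leukocytes in general, and the natural killer and macrophage markers of these samples had median log2 fold changes of 2.30 and 0.84. Whether natural killer cells or macrophages were present, and what part they had in these values, was not tested.

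Of 12 transcription factors known to act on such receptor genes 9 rose, 2 fell and 1 was not called (median log2 fold change 0.86), where 23.4% of all genes were called as higher and 23.9% as lower. The factors were chosen with earlier results known, and nothing particular to them is drawn from this count. Tbx21 is among the 9 that rose, although it was bright enough to test only through its Irf4-/- samples. Klf2, known in lymphocytes as an activator of S1pr1, rose 4.07-fold, Tbx21 rose as given above, the ETS factor gene Spib rose 2.42-fold and Bach2, which holds back plasma cell differentiation, 1.80-fold (adjusted p at most 8.51e-07 in limma). The 2 that fell were Prdm1 (log2 fold change -0.85) and Foxo1 (-0.31), a factor of quiescence and dark zone B cells known to support Ccr7 and Cxcr4. Foxo1 was named after its value was seen, and averaged 965.6 ± 55.3 units (Irf4-/-) and 1195 ± 63.0 (Irf4+/+; SD, n = 5; adjusted p = 0.000432 in limma).

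**Figure D4:**
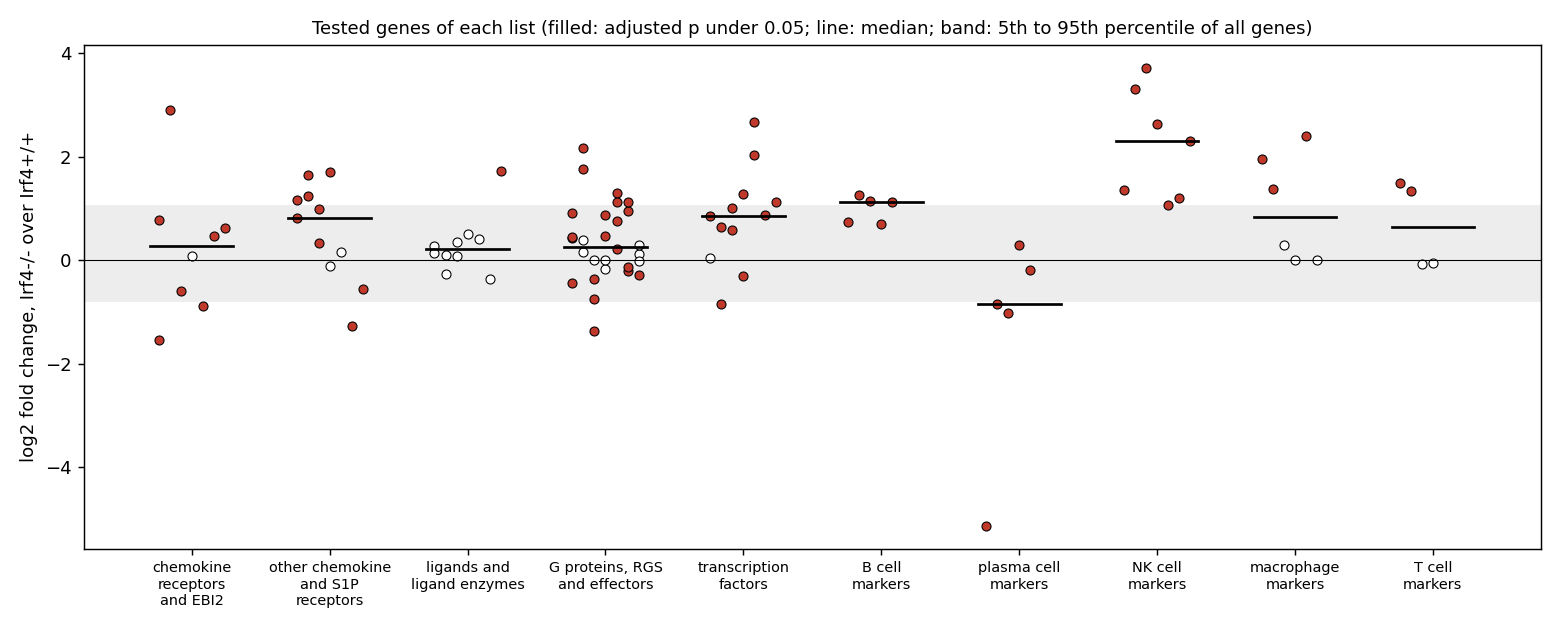
Log2 fold change of Irf4-/- over Irf4+/+ samples (vertical axis) for the tested genes of the lists shown, 1 point a gene. Points are filled where the adjusted p was under 0.05. Lines are medians, and the grey band holds the 5th to 95th percentile of all genes. The dendritic cell and granulocyte marker lists are not drawn. The receptors spread to both sides of 0 with a median of 0.28, while the B cell markers (1.12) and natural killer markers (2.30) lie above 0.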

How the data were processed

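The authors deposited a linear MAS5 signal intensity for each probe set and array, per the submitters' processing notes, with version and stated scaling target not given in the sources used here. Of 45101 probe sets, 64 controls were left out. In the platform annotation 34945 probe sets carried 1 symbol, 932 several and 9160 none, and symbols were updated by gene ID for 34741 through a RefSeq table (GRCm38.p6).

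Signals were transformed to log2(signal + 7.9), the 20th percentile of all values, so fold changes of dim genes are understated. Probe sets with a mean over all 10 arrays under the 40th percentile (25.1 units) were left out, and the brightest probe set stood for a gene. Genotype was the single term of a linear model in limma 3.58.1 (lmFit, eBayes with trend) under R 4.3.3, fitted over 12251 genes, and separately over 22533 probe sets, with Benjamini-Hochberg adjustment over each. Pairs of receptors were compared by exact permutation tests over samples. The number of arrays limits the precision.

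The receptors, lists and pairs were chosen with earlier results of these data known. Named are all 9 receptors and Irf4, the genes of each of the 4 pathway lists with the smallest p (up to 4), and the 2 nearest profiles of each receptor changed at least 2-fold. Marker genes of cell types are named as examples, outside this rule. Alternatives were other pseudocounts, filters, scalings, variance models, probe set choices, array weights, a replicate block and each array left out. Same-numbered samples of the genotypes did not deviate together (correlations -0.04 to 0.05), so the numbers were not taken as pairs.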

Additional observations from a re-analysis of the deposited data

Results flagged for a closer look

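In 4 of 60 groups of 5 samples examined, 1 sample stood apart from the other samples of its genotype by Dixon's test (chance gives about 1 in 20). Ccr10 read 35.3 units in Irf4-/- replicate 1, against 6.5 to 11.7 in the other Irf4-/- samples. The within-array difference of Ccr7 minus Cxcr5 was -0.57 in Irf4+/+ replicate 3 against -0.37 to -0.29 in the other Irf4+/+ samples, and that of Cxcr4 minus Cxcr5 was 0.15 against 0.52 to 0.57. Sgpl1 read 512.6 units in Irf4+/+ replicate 5 against 362.8 to 398.8 in the other Irf4+/+ samples.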

How the results depend on the processing

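Of the 8 tested receptors 7 were called, and 6 or 7 were called under each alternative, with 7 under every array left out and 7 to 8 of the probe sets (8 as reported). Under the same alternatives the share of all genes called lay between 30.8% (no filter) and 60% (filter at the 60th percentile), against 47.2% as reported. The 6 arose from a filter at the 60th percentile, which removed Ccr10, and from leaving out probe sets whose names mark several transcripts, which removed Ccr6. No called receptor changed direction or lost its call under any alternative that tested it. Cxcr3 had a log2 fold change of the opposite sign without Irf4-/- replicate 5 (-0.080), Irf4+/+ replicate 1 (-0.0026) and Irf4+/+ replicate 3 (-0.00087), with a range of -0.080 to 0.25 over the arrays left out, and was called under no alternative (adjusted p from 0.408 to 0.998). Of the 4 receptor pairs 3 were called, also with each array left out (3 to 3). In all 3 the separation was fixed by the single receptors. The receptors of 2 pairs separate in opposite directions, and the gap between the Ccr6 groups exceeds the range of Cxcr5. With the replicate block 0 pairs were called, since permuting within 5 replicate numbers cannot give a p under 0.0625. In limma the replicate block kept all 7 receptor calls. Among the genes of the lists, added after the data were seen, Hsd3b7 passed without a variance trend (adjusted p = 0.0494), and the macrophage marker Csf1r passed with the mean of probe sets (0.55, adjusted p = 0.00449), without probe sets of several transcripts (0.88, adjusted p = 0.000239) and without Irf4+/+ replicate 4 (0.36, adjusted p = 0.0376), all in limma. The T cell markers had 0 calls among 1 tested at the 60th percentile filter, and the granulocyte markers 1 among 3 without probe sets of several transcripts. Beside the receptors, the call of the natural killer marker Prf1 was lost without such probe sets (0.41, adjusted p = 0.207; the cause was not tested), where 4 of 5 such markers were called. The other chemokine and sphingosine 1-phosphate receptors then had 4 calls among 6 tested. Dim signal limits Ccr9, Ccr10 and Cxcr3.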

Other observations

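For Ccr10, the other receptor changed at least 2-fold, the nearest profiles over the 10 arrays were those of Apoc1 (distance 1.45, log2 fold change -1.10) and 4930562C15Rik (distance 1.56, log2 fold change -1.25), several times farther away than the nearest profile of Ccr6. Bcl6, which in germinal centre B cells is known to hold down Gpr183, rose in Irf4-/- samples together with Gpr183 (802.2 ± 85.9 units in Irf4-/- and 513.6 ± 40.9 in Irf4+/+, with SD and n = 5; log2 fold change 0.63, adjusted p = 7.53e-06 in limma). Flt3, a cytokine receptor of dendritic cells and progenitors, fell 7.14-fold, with 53.2 ± 15.6 units in Irf4-/- and 417.3 ± 29.7 in Irf4+/+ samples (adjusted p = 1.94e-10 in limma). Both were picked with their values in view.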
